A study of Mus musculus with 96 samples.

Results

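The genes described here are 9 genes of the primitive endoderm: Gata4, Gata6, Sox17, Sox7, Foxa2, Pdgfra, Dab2, Hnf4a and Lama1. They were taken by symbol out of 37620 genes listed in each of 7 RNA-seq count tables of mouse embryonic stem cells (ESCs). Each table was analysed on its own, and peaks of RING1B, H3K4me3, H3K27ac, WDR5 and STAT3 were read at the same 9 genes.

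Primitive endoderm is the layer of the blastocyst that faces the cavity and later forms the yolk sac endoderm. FGF signalling through ERK drives its formation, GATA6 acts first, and SOX17, GATA4 and SOX7 follow. ESCs represent the sister layer, the epiblast, and keep these genes low, while forced expression of GATA4 or GATA6 converts ESCs into extraembryonic endoderm. RYBP is a subunit of the variant Polycomb repressive complex PRC1, whose catalytic subunit RING1B ubiquitinates histone H2A at many silent developmental genes. WDR5 is a core subunit of the COMPASS complexes that methylate H3K4.

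All ESCs were grown in serum with LIF, and each RNA group had 2 libraries. In the Rybp knockout, a Rybp-floxed line, R7.15, was treated over 4 days with 4-OHT at 5 µM to give Rybp-/- ESCs, while the control was Rybp+/+ ESCs of that line, so that 4-OHT and the deletion cannot be told apart. Rybp knockdown (shRybp) and Wdr5 knockdown (shWdr5) were made in R1 ESCs and shared the shEV (empty vector) controls. R1 ESCs also carried the TF-AA mutation, compared with WT ESCs. R7.15 cells of the genotype RYBPfl/fl Rosa26::CreERT2, all given 4-OHT, expressed either RYBP with a 21aa deletion (RYBP phase disruption) or wild-type RYBP (WT.RYBP). J1 ESCs with Tet on.RYBP received DOX or vehicle, and rTRS ESCs, with a DOX-induced Rybp_Stat3 integration, received DOX or were left as NTC. For ChIP-seq, R1 ESCs with a Stat3 knockdown (shStat3) or shEV gave 1 RING1B sample each, and Tet.Rybp.Stat3 ESCs, an R1 line labelled with that integration too, were taken with and without DOX. Nothing in the labels says that both libraries of a group came from separate cultures, so p-values measure the spread between these libraries, which may be technical.

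Total counts on genes ranged from 14512857 to 81049618 per library. Levels are given as CPM (counts scaled to a common library size) with edgeR's TMM factors, and a gene was called in a comparison when edgeR's quasi-likelihood test, adjusted across every gene tested in that table, gave p under 0.05. The altered gene followed its label in 4 tables. Rybp fell from 110 CPM in both controls to 24.8 and 25 in the knockout, and from 85.7 and 86.4 to 35.8 and 36.6 in the knockdown. Wdr5 fell from 350 and 343 to 60 and 58.2 CPM, and Rybp rose from 135 and 145 to 522 and 535 CPM in J1 ESCs with DOX. Each knockdown also moved the target of the other. With shRybp, Wdr5 went from 372 and 364 to 265 and 260 CPM (log2 fold change -0.49 ± 0.04 SE, edgeR adjusted p = 2.7e-08). With shWdr5, Rybp went from 79.9 and 81.3 to 121 and 117 CPM (0.56 ± 0.05, edgeR adjusted p = 3.8e-09). Both groups of the phase disruption table carried added RYBP, with Rybp at 749 and 753 CPM in WT.RYBP and 662 and 626 in the deletion. In rTRS ESCs, however, Rybp read 113 and 110 CPM in the NTC libraries and 102 and 99.8 in the libraries labelled DOX. Stat3 read 159 and 172 against 191 and 188 and was called higher (log2 fold change 0.2 ± 0.06 SE, edgeR adjusted p = 0.026). Since the labelled induction is not seen in the counts of Rybp, although Stat3 was slightly higher, these are called the libraries labelled DOX throughout. In bulk RNA, more cells expressing a gene and more RNA per cell cannot be told apart.

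Promoter sequences from RefSeq were matched for 4 of the 9 genes, and the 250 bases before each start site were placed on mm9 by exact match of the GRCm38.p6 sequence. They are shown because the RING1B peaks described further on cover 3 of these genes and leave out Hnf4a. Bases inside annotated exons are not printed. Capitals mark each CG and each match, on either strand, to AGATAA or TGATAA, the core bound by GATA factors, or to TTCNNNGAA, the core bound by STAT factors. The first Foxa2 sequence (chr2:147871685-147871934, minus strand) had 20 CG and no motif, and the second (chr2:147871201-147871450, minus strand) had 13 CG and 1 AGATAA. The Pdgfra sequence is chr5:75548026-75548275, the Dab2 sequence chr15:6336498-6336597 and the Hnf4a sequence chr2:163332343-163332543, all on the plus strand.
Foxa2 a: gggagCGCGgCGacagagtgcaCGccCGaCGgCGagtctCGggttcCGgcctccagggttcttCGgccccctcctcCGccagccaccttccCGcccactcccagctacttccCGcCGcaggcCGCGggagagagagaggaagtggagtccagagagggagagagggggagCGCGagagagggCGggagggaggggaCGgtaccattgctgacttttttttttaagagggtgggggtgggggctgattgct
Foxa2 b: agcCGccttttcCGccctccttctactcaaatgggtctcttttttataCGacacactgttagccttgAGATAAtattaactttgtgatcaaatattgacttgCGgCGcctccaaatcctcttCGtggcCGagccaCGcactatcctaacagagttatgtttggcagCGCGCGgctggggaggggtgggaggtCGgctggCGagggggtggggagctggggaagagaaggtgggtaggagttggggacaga
Pdgfra: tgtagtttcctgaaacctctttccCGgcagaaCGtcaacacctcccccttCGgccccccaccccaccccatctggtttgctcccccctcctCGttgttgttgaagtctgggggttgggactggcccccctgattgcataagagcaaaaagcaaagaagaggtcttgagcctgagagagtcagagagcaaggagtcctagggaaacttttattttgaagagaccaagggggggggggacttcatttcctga
Dab2: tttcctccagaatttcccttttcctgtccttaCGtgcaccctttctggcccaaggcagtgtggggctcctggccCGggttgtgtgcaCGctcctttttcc
Hnf4a: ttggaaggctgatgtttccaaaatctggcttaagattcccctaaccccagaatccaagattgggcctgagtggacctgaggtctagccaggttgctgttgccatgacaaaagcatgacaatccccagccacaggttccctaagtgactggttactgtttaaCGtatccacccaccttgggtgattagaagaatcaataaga
Over their full 250 bases, Foxa2 had 20, 13 and 6 CG at the 3 RefSeq start sites matched. Dab2 had 17 at the start site shown and 2 at the other one matched, Pdgfra had 4, and Hnf4a had 3 and 4. The annotation used for the peaks lists 4 start sites for Foxa2 and 13 for Dab2. Of all 32851 promoters of this length, 17.9% had at least 20 CG, 23.5% at least 17 and 71% at least 3, and the median was 6. AGATAA was found in 9.99%, TGATAA in 7.94% and TTCNNNGAA in 7.02% of them. Among the 4 genes, AGATAA was found once at Foxa2 and once at Hnf4a, where it lies outside the printed stretch. TGATAA and TTCNNNGAA were found once each at the matched start site of Dab2 that is not shown.

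On a wider scale, the positions of the genes are those of GENCODE vM1 on NCBIM37 (mm9). The transcription factors lie at chr14:63817759-63890529 (Gata4, minus strand), chr18:11052508-11085633 (Gata6, plus strand), chr1:4481009-4486494 (Sox17, minus strand), chr14:64562511-64569569 (Sox7, plus strand), chr2:147868613-147872705 (Foxa2, minus strand) and chr2:163332544-163398646 (Hnf4a, plus strand). The receptor gene Pdgfra lies at chr5:75548316-75594229, the adaptor gene Dab2 at chr15:6249788-6390712 and the laminin gene Lama1 at chr17:68046605-68171985, all on the plus strand.

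In control ESCs the 9 genes were weakly expressed, with the exception of Lama1. Per kilobase of the gene length given in the tables, Lama1 had the highest level of the 9 in the controls of all 7 tables, from 2.51 CPM per kb in WT.RYBP to 27.7 in vehicle-treated J1 ESCs. The mean levels of the other 8 genes lay between 0.0126 CPM per kb, for Hnf4a in Rybp+/+ ESCs, and 2.19, for Sox7 in shEV ESCs. Gata6, Gata4, Sox17 and Sox7 were all detected in shEV ESCs, at 2.28 and 2.66 CPM, 1.47 and 2.61 CPM, 1.37 and 2.42 CPM and 7.23 CPM in both libraries. Gata6 and Sox17 did not pass the filter on low counts in the TF-AA and J1 tables, where no group of either gene exceeded a mean of 0.283 CPM.

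**Figure D1:**
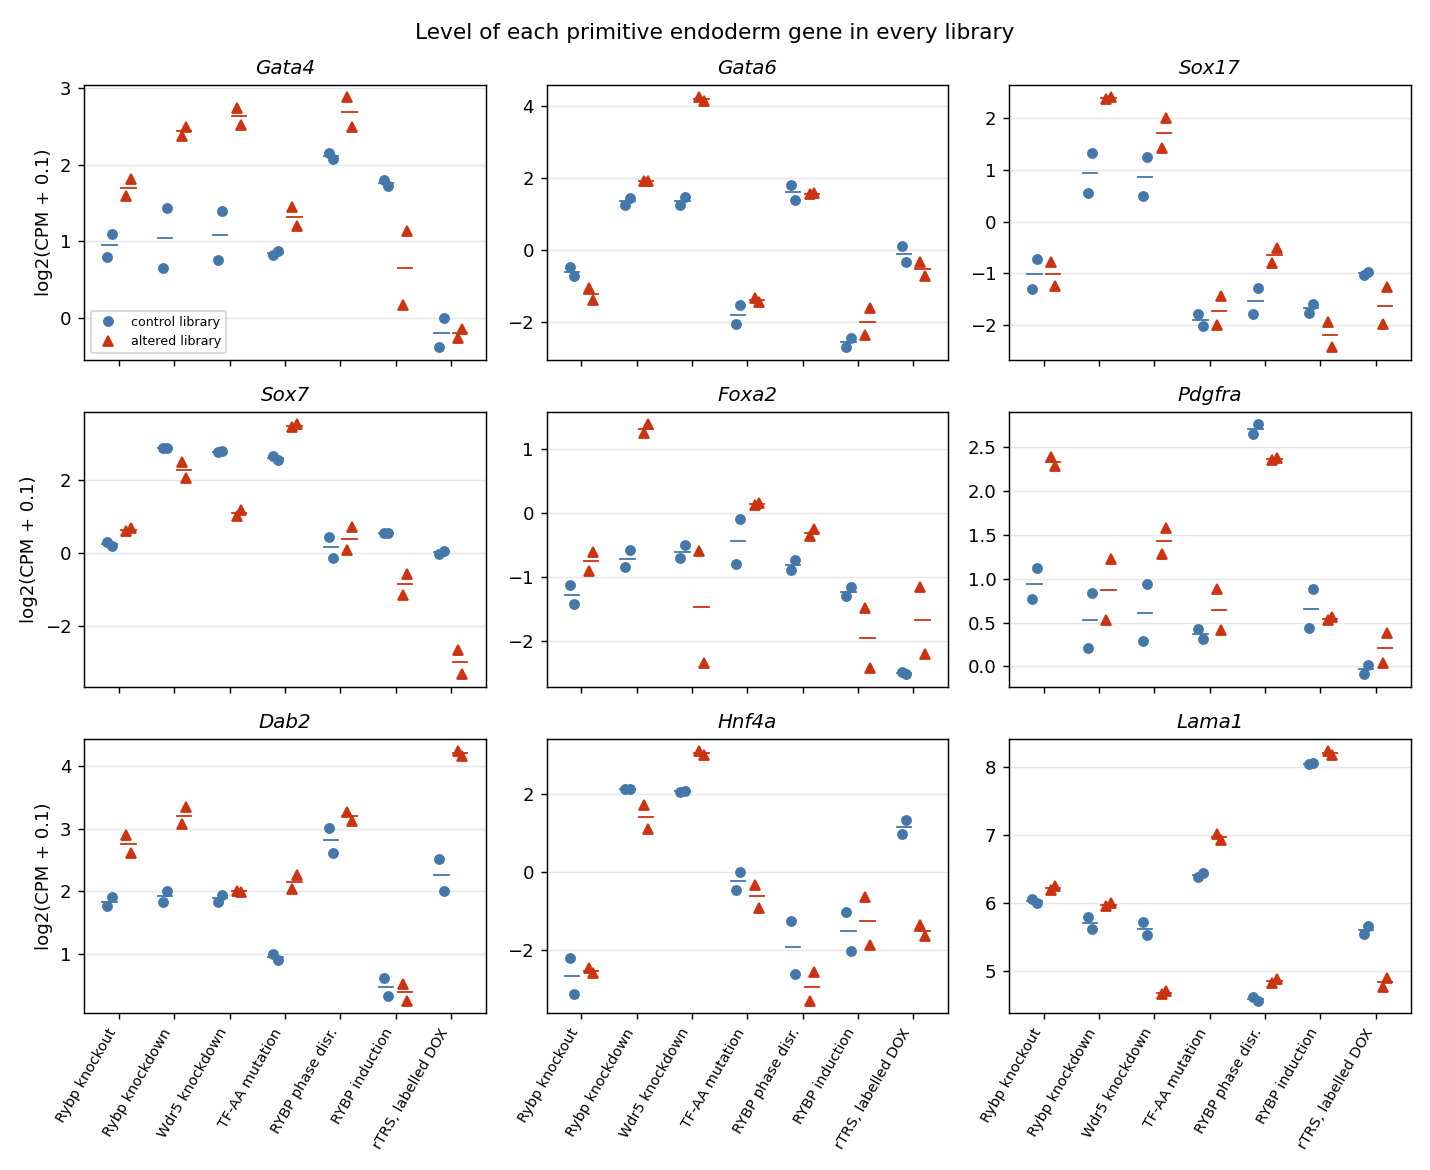
Level of the 9 genes in every library, as log2(CPM + 0.1) on the vertical axis of each panel and by comparison on the horizontal axis. Circles are control libraries, triangles are altered libraries and lines are the means of 2 libraries. Gata6 stands highest in the 2 libraries of the Wdr5 knockdown, at 18.9 and 17.8 CPM, and Sox7 falls to 0.0578 and 0 CPM in the rTRS libraries labelled DOX.

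The Rybp knockout raised 4 of the 8 genes tested and lowered none. Over all genes tested, 22.8% were called higher and 22.7% lower. The receptor, the adaptor and 1 of the transcription factors gained most, and Lama1 rose slightly. Pdgfra, a PDGF receptor and an early marker of primitive endoderm precursors, read 1.6 and 2.08 CPM in Rybp+/+ ESCs and 5.14 and 4.77 in Rybp-/- ESCs. Its groups did not overlap and the log2 fold change was 1.43 ± 0.17 (SE, edgeR adjusted p = 1.8e-08). Dab2, an endocytic adaptor required in visceral endoderm, read 3.3 and 3.65 against 7.39 and 6.04 CPM, again without overlap (0.95 ± 0.14, edgeR adjusted p = 6.9e-07). Gata4, a zinc finger factor that acts with GATA6 in this lineage, rose from 1.63 and 2.04 to 2.9 and 3.4 CPM (0.78 ± 0.19, edgeR adjusted p = 0.0011). Lama1, the laminin chain that primitive endoderm lays into its basement membrane, rose by 0.19 ± 0.04 on the log2 scale, from 66.3 and 64.1 to 73.1 and 75.5 CPM (edgeR adjusted p = 6e-04). The earliest factor behaved otherwise. Gata6 read 0.623 and 0.509 CPM in Rybp+/+ ESCs and 0.381 and 0.286 in Rybp-/- ESCs, a log2 difference of -0.76 ± 0.48 that did not pass (edgeR adjusted p = 0.2). Sox17 read 0.305 and 0.509 against 0.486 and 0.325 CPM with overlapping libraries (-0.01 ± 0.51), and Sox7 and Foxa2, a forkhead factor of endoderm, differed by 0.42 ± 0.26 and 0.65 ± 0.51 without a call. Hnf4a, a nuclear receptor of visceral endoderm and liver, had 1 to 9 counts per library and was not tested.

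Fibroblast markers moved with this comparison. Of 10 markers of feeder fibroblasts, 9 were higher in Rybp-/- ESCs and none lower, their summed level was 70 to 70.3 CPM in Rybp+/+ and 141 to 148 in Rybp-/- ESCs, and none was at 0 in all libraries. Pdgfra is also expressed by fibroblasts, and the part of these markers in its rise was not tested.

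The Rybp knockdown in R1 ESCs raised 6 of the 9 genes and lowered 2. Among all genes tested, 26.8% were called higher and 26.0% lower. Foxa2 and Sox17, both without a call in the knockout, were among those that rose. Foxa2 rose 4.67-fold, from 0.455 and 0.571 CPM in shEV to 2.28 and 2.52 in shRybp ESCs (log2 fold change 2.22 ± 0.34, edgeR adjusted p = 2.5e-05). Sox17, which maintains primitive endoderm once it has formed, rose from 1.37 and 2.42 to 5.06 and 5.19 CPM (1.44 ± 0.24, edgeR adjusted p = 4.8e-05). Both groups of libraries were well apart for these 2 genes. Gata4 went from 1.47 and 2.61 to 5.09 and 5.55 CPM (1.39 ± 0.23, edgeR adjusted p = 6.3e-05), and Dab2 from 3.46 and 3.94 to 8.32 and 10.1 CPM (1.32 ± 0.16, edgeR adjusted p = 1.5e-06). Gata6 rose least among the transcription factors called higher, from 2.28 and 2.66 to 3.7 and 3.68 CPM (0.58 ± 0.21, edgeR adjusted p = 0.03). Lama1 rose by 0.26 ± 0.07 on the log2 scale (edgeR adjusted p = 0.0027). A SOX factor and a nuclear receptor went the other way. Sox7, which acts late in the lineage, read 7.23 CPM in both shEV libraries and 5.54 and 4.08 in shRybp (-0.58 ± 0.17, edgeR adjusted p = 0.007), and Hnf4a read 4.25 and 4.3 against 3.19 and 2.05 CPM (-0.69 ± 0.23, edgeR adjusted p = 0.015). The libraries of Pdgfra overlapped, at 1.06 and 1.69 against 1.34 and 2.23 CPM (0.37 ± 0.35, edgeR adjusted p = 0.39). The call of Gata6 was lost with DESeq2 (adjusted p = 0.092) and when shEV library 1 (0.11) or shRybp library 1 (0.13) or 2 (0.12) was left out. Those of Sox7 and Hnf4a were lost without shRybp library 2 (0.11 and 0.2).

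The knockout and the knockdown were compared in 1 fit by the difference of their log2 fold changes (knockout minus knockdown). Of all 18203 genes tested, 40.5% differed, and so did 5 of the 9 genes. The change was lower in the knockout for Gata6 (-1.32 ± 0.42, edgeR adjusted p = 0.016), Sox17 (-1.43 ± 0.48, 0.019) and Foxa2 (-1.55 ± 0.57, 0.033). It was higher in the knockout for Sox7 (1.03 ± 0.28, edgeR adjusted p = 0.0055) and Pdgfra (1.08 ± 0.37, 0.021). Gata4, Dab2, Hnf4a and Lama1 did not pass, with differences of -0.58 ± 0.32, -0.34 ± 0.22, 0.91 ± 0.83 and -0.05 ± 0.08. The 2 experiments differ in cell line, in the way of depletion and in 4-OHT, which cannot be told apart. The difference for Sox7 held in all 13 alternatives run. The call for Gata6 was lost without Rybp+/+ library 1 (adjusted p = 0.06) or Rybp-/- library 2 (0.071). For Sox17 it was lost without Rybp+/+ library 2 (0.17), Rybp-/- library 2 (0.091), shEV library 1 (0.068) or shRybp library 1 (0.057) or 2 (0.061). For Foxa2 the same held without library 1 of Rybp+/+ (0.11), Rybp-/- (0.098), shEV (0.088) or shRybp (0.07) and without shRybp library 2 (0.099). Pdgfra lost it without library 1 of Rybp+/+ (0.081), Rybp-/- (0.063) or shRybp (0.14) and without shEV library 2 (0.15). The difference for Gata4 moved to -1.05 without shEV library 2, and that for Hnf4a to 3.08 without Rybp+/+ library 1. Hnf4a had only 9 and 1 counts in Rybp+/+ and 6 and 5 in Rybp-/- ESCs, too few to be tested in the knockout alone.

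**Figure D2:**
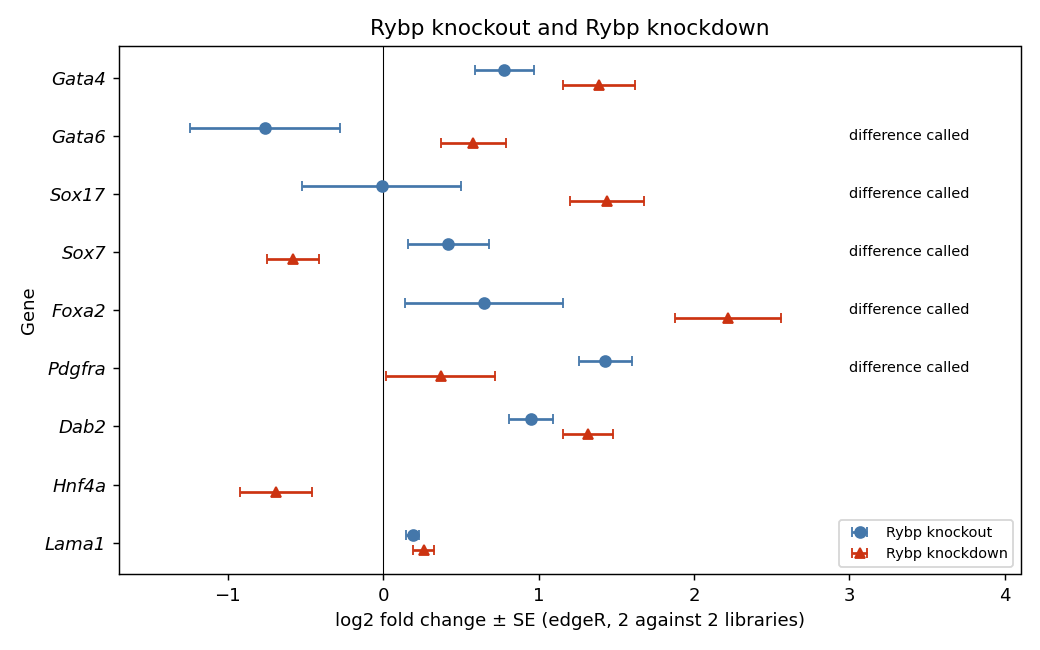
Log2 fold change (horizontal axis, ± SE from edgeR, 2 against 2 libraries) of each gene (vertical axis) in the Rybp knockout (circles) and the Rybp knockdown (triangles). Sox17, Foxa2 and Gata6 lie higher in the knockdown, Pdgfra and Sox7 higher in the knockout, and for these 5 the difference passed the test.

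Wdr5 knockdown gave the strongest change of Gata6 in the series. Gata6, whose product starts the primitive endoderm programme, read 2.29 and 2.68 CPM in shEV ESCs and 18.9 and 17.8 CPM in shWdr5 ESCs, a 7.37-fold rise (log2 fold change 2.88 ± 0.14, edgeR adjusted p = 4e-14). It passed Lama1 as the member with the highest level per length, at 5.74 CPM per kb against 2.69 for Lama1. In all, 5 of the 9 genes were called higher and 2 lower, where 31.5% of all genes tested were called higher and 31.5% lower. Gata4 rose from 1.59 and 2.53 to 6.59 and 5.66 CPM (1.58 ± 0.22, edgeR adjusted p = 1.2e-06), and Hnf4a from 4.07 and 4.15 to 8.5 and 7.92 CPM (1 ± 0.15, edgeR adjusted p = 6.7e-06). The GATA factors and Hnf4a were thus clear of their controls in both libraries. Sox17 rose less, from 1.31 and 2.28 to 2.57 and 3.94 CPM (0.87 ± 0.28, edgeR adjusted p = 0.011), and Pdgfra went from 1.12 and 1.82 to 2.34 and 2.88 CPM (0.83 ± 0.29, edgeR adjusted p = 0.015). These 2 calls were lost with DESeq2 (adjusted p = 0.064 and 0.094), without shEV library 1 (0.12 and 0.17) and without shWdr5 library 2 (0.19 and 0.12).

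A SOX factor and the laminin chain fell. Sox7 dropped from 6.78 and 6.83 to 1.92 and 2.16 CPM (-1.74 ± 0.19, edgeR adjusted p = 4.8e-08), and Lama1 from 52.4 and 45.9 to 25.2 and 25.9 CPM (-0.94 ± 0.08, edgeR adjusted p = 3.3e-10). Dab2 differed by only 0.12 ± 0.19 (3.46 and 3.75 against 3.93 and 3.89 CPM, edgeR adjusted p = 0.61). Foxa2 had 2 to 12 counts per library and overlapping groups (-0.75 ± 0.61, edgeR adjusted p = 0.3). The estimate moved to -2.47 without shWdr5 library 1 and to 0.01 without shWdr5 library 2. Because the shEV libraries serve both knockdowns, the 2 sets of fold changes are not independent. Each knockdown also changed the mRNA of the other's target, as given above, and the part of this in the fold changes was not tested. Side by side, Gata4 changed by 1.39 with shRybp and 1.58 with shWdr5, Gata6 by 0.58 and 2.88, Dab2 by 1.32 and 0.12, and Lama1 by 0.26 and -0.94.

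**Figure D3:**
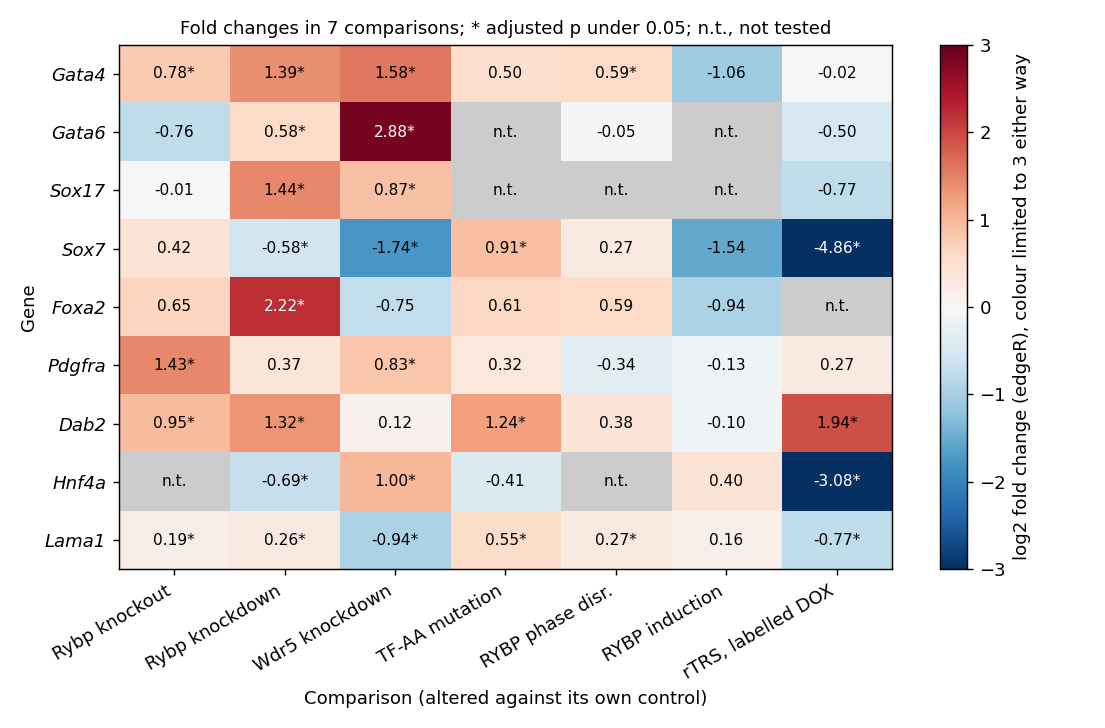
Log2 fold change (colour and number) of the 9 genes (rows) in the 7 comparisons (columns), each against its own controls. An asterisk marks an adjusted p under 0.05 and grey cells were not tested. No column has all its genes called in 1 direction, and the largest rise is that of Gata6 with shWdr5, at 2.88.

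The TF-AA mutation raised 3 of the 7 genes tested and lowered none, beside 14.4% of all genes called higher and 16.1% lower. Sox7 rose from 6.21 and 5.73 CPM in WT ESCs to 10.9 and 11.5 in mutant ESCs (0.91 ± 0.16, edgeR adjusted p = 0.00013). Dab2 rose from 1.91 and 1.78 to 4.03 and 4.7 CPM (1.24 ± 0.26, edgeR adjusted p = 0.00078), and Lama1 from 83.4 and 87 to 129 and 121 CPM (0.55 ± 0.08, edgeR adjusted p = 1e-05). These calls held in every alternative run. Gata4, at 1.67 and 1.73 against 2.63 and 2.19 CPM, did not pass (0.5 ± 0.31, edgeR adjusted p = 0.24), and neither did Foxa2, Pdgfra or Hnf4a (0.61 ± 0.47, 0.32 ± 0.39 and -0.41 ± 0.52). Gata6 and Sox17 had 3 to 6 counts per library. Of the 5 fibroblast markers tested, 3 were higher in mutant ESCs, with sums of 18.1 CPM in both WT libraries and 31.1 to 32.3 CPM in the mutant, Col3a1, Dcn and Lum were at 0 in all 4 libraries, and the part of these markers in the changes was not tested.

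In R7.15 ESCs with RYBP phase disruption, 2 of 7 genes were called higher and none lower, against 16.1% and 17.0% of all genes tested. Gata4 read 4.34 and 4.12 CPM in WT.RYBP and 7.27 and 5.51 in the deletion (0.59 ± 0.21, edgeR adjusted p = 0.031). Lama1 read 24.4 and 23.5 against 28.2 and 29.5 CPM (0.27 ± 0.1, edgeR adjusted p = 0.028). Both calls were lost with DESeq2 (adjusted p = 0.17 and 0.16), without the filter on low counts (0.092 and 0.079) and when single libraries were left out. Without WT.RYBP library 1, WT.RYBP library 2 or RYBP phase disruption library 1, the adjusted p was 0.072, 0.12 and 0.29 for Gata4 and 0.081, 0.17 and 0.05 for Lama1. Without RYBP phase disruption library 2 it was 0.14 for Lama1. Gata6 was nearly level, at 3.4 and 2.56 against 2.85 and 2.89 CPM (-0.05 ± 0.29, edgeR adjusted p = 0.91). Dab2, at 7.99 and 6.05 against 9.57 and 8.67 CPM, and Pdgfra, at 6.17 and 6.68 against 5.02 and 5.11 CPM, had groups without overlap but no call (0.38 ± 0.17 and -0.34 ± 0.2, edgeR adjusted p = 0.094 and 0.2). Dab2 passed only without WT.RYBP library 1 (0.038). Fibroblast markers summed to 475 to 483 CPM in WT.RYBP and 383 to 409 in the deletion, where 5 of 10 fell, and their part in the level of Pdgfra was not tested. Sox7, at 1.26 and 0.811 against 0.951 and 1.55 CPM, and Foxa2, at 0.44 and 0.499 against 0.679 and 0.74 CPM, were not called either (0.27 ± 0.45 and 0.59 ± 0.57). Sox17 and Hnf4a had 0 to 9 counts and were not tested.

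Induction of RYBP in J1 ESCs changed none of the 7 genes tested at the threshold, while 3.63% of all genes were called higher and 2.39% lower (899 genes, and 2806 of 14937 at an unadjusted p under 0.05). Of the 7 genes, 3 reached an unadjusted p under 0.05. Gata4 read 3.38 and 3.19 CPM with vehicle and 1.02 and 2.09 with DOX (-1.06 ± 0.34, edgeR adjusted p = 0.059). Sox7 read 1.36 CPM in both vehicle libraries and 0.352 and 0.574 with DOX (-1.54 ± 0.59, edgeR adjusted p = 0.12). In both genes the groups were apart, and Lama1 read 263 and 264 against 299 and 289 CPM (0.16 ± 0.05, edgeR adjusted p = 0.053). Gata4 passed as lower without the filter on low counts (0.025), with the replicate number as a block (0.023) and without DOX library 2 (0.0056). Lama1 passed as higher with DESeq2 (0.036), with the block (0.032) and without vehicle library 1 (0.0016) or 2 (0.001). Pdgfra, Dab2, Foxa2 and Hnf4a differed by -0.13 ± 0.43, -0.1 ± 0.47, -0.94 ± 0.95 and 0.4 ± 0.89.

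In rTRS ESCs the libraries labelled DOX, of which the second carries the prefix S5 in its table in place of rTRS, had 1 gene higher and 3 lower of 8 tested, also when the second was left out, with 23.0% of all genes called higher and 20.4% lower. Dab2 rose from 5.64 and 3.91 to 18.8 and 17.9 CPM, the largest rise of this gene in the series (1.94 ± 0.16, edgeR adjusted p = 9e-07). Sox7 was nearly lost, with 45 and 51 counts in NTC and 3 and 0 counts in the libraries labelled DOX. The ratio of NTC to DOX was 31.4, with a 95% interval of 10.4 to 155 that covers counting error only (edgeR adjusted p = 0.00069). With counts divided by 2, as if both mates of each pair had been counted, the ratio was 23.6 with an interval of 6.17 to 200. The fitted log2 change moved to -8.57 without library 1 and -3.93 without library 2 of those labelled DOX. Hnf4a fell 8.44-fold, from 1.86 and 2.44 to 0.289 and 0.216 CPM (-3.08 ± 0.43, edgeR adjusted p = 8.3e-05), and Lama1 from 46.7 and 50.6 to 27.2 and 29.8 CPM (-0.77 ± 0.09, edgeR adjusted p = 1.6e-05). The GATA factors, Sox17 and Pdgfra were not called. Gata6 read 0.998 and 0.707 against 0.693 and 0.511 CPM (-0.5 ± 0.49), Gata4 differed by -0.02 ± 0.46, Sox17 by -0.77 ± 0.68 and Pdgfra by 0.27 ± 0.41. Foxa2 had 4 counts in both NTC libraries and 18 and 6 in those labelled DOX, and was not tested. Markers of other cells moved in the same libraries. Of 6 trophectoderm markers, 5 were tested and all 5 were higher, and none of the 6 was at 0 in all libraries. Their summed level was 19.9 to 21.1 CPM in NTC and 90.9 to 98.4 in the libraries labelled DOX. Of 11 markers of ESCs, 8 were lower and none higher, and their sum went from between 5150 and 5450 to between 3220 and 3460 CPM. Genes of definitive endoderm and the anterior streak were higher in 5 of 10 tested and lower in none, with sums of 187 to 197 and 305 to 320 CPM, and the streak gene T went from 1.45 and 1.56 to 31.2 and 29.9 CPM. Whether these shifts have a part in the values of Dab2, Sox7 and Hnf4a was not tested.

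Over the 7 comparisons, Gata6 was tested in 5 and called in 2, both knockdowns in R1 ESCs. Its group means, set side by side, were 18.3 CPM with shWdr5 and 3.69 with shRybp, against 2.49 and 2.47 in the same shEV libraries counted in each table. They were 2.98 in WT.RYBP and 2.87 in phase disruption, 0.853 in NTC and 0.602 in the libraries labelled DOX, and 0.566 in Rybp+/+ and 0.333 in Rybp-/- ESCs. In the TF-AA table they were 0.195 and 0.283, and in J1 ESCs 0.0711 and 0.163. The tables were normalized separately, so the order across them is a description. Within a table, the difference from the control passed the test with shWdr5 and with shRybp, and the shRybp call was lost in 4 of 9 alternatives.

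The genes most like Gata6 were looked up by Pearson correlation of log2(CPM + 1), centred within each table, over the 28 library columns of the 7 tables and 13517 genes. The 5 highest were Pnkd (r = 0.97), Rab23 (0.95), Ms4a10 (0.95), 9530053A07Rik (0.95) and Ppm1a (0.94). Both shEV libraries enter by 2 countings among these columns. All 5 were higher in both shWdr5 libraries than in both shEV libraries, and both shWdr5 libraries are also those where Gata6 was highest. The 5 genes were picked by their likeness to Gata6. Their rise with shWdr5 therefore largely follows from the way they were picked and is no separate result. Pnkd went from 75.2 and 79.7 to 309 and 318 CPM with shWdr5 but from 79.4 and 84.7 to 93.4 and 93.6 with shRybp, Rab23 from 80.5 and 74.4 to 225 and 227, and Ms4a10 from 0.655 and 0.506 to 31.5 and 34.8. The members of the list were less alike. Gata4 had r = 0.63, Sox17 0.53, Hnf4a 0.46, Pdgfra 0.33, Dab2 0.06, Lama1 -0.56 and Sox7 -0.63. Foxa2 (-0.04) was not ranked, since its mean of 0.59 CPM lay under the minimum of 1 CPM.

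Peaks were read within 2.5 kb of any annotated start site, from lists that the authors had called on merged replicates or on 1 sample, so no test between lists was made. RING1B is the catalytic core of PRC1, and 8 of the 9 genes had a RING1B peak in each of the 4 lists, with Hnf4a as the exception in all of them. The share of protein-coding genes with such a peak was 54.7% in Tet.Rybp.Stat3 ESCs without DOX, 41.9% with DOX, 45.9% in shEV and 41.6% in shStat3. The strength set 2 groups of members apart. Gata4, Gata6, Sox17, Sox7, Foxa2 and Pdgfra had a peak in the top 10% of fold enrichment in every list, which only 7.23%, 5.59%, 5.84% and 5.30% of protein-coding genes had in the same order of lists. Foxa2 reached 66-fold without DOX and 47.6-fold with DOX, and 50.9-fold in shEV and 46.4-fold in shStat3. Its domain in shEV extended over 13.6 kb (chr2:147862134-147875709) and covered all 4 annotated start sites, the promoters shown above included. Gata6 reached 47.9-, 40.2-, 57.7- and 41.3-fold in the same order, in domains of 12.8 to 15.4 kb around its start site. Sox17, Sox7, Pdgfra and Gata4 lay between 29.6- and 44.9-fold. Dab2 and Lama1 had narrow and weaker peaks. At Dab2 the peak was 1.23 to 1.74 kb wide with 5.99- to 10.9-fold enrichment, and at Lama1 1.47 to 1.91 kb wide with 5.53- to 18.5-fold. At Dab2 it covered the 17-CG promoter and not the start site with 2 CG. The Pdgfra promoter with 4 CG and the Foxa2 promoter with 6 CG also lay inside RING1B peaks, in Tet.Rybp.Stat3 ESCs without DOX and in shEV. Neither Hnf4a promoter, with 3 and 4 CG, did. A relation between RING1B and the number of CG was not tested.

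**Figure D4:**
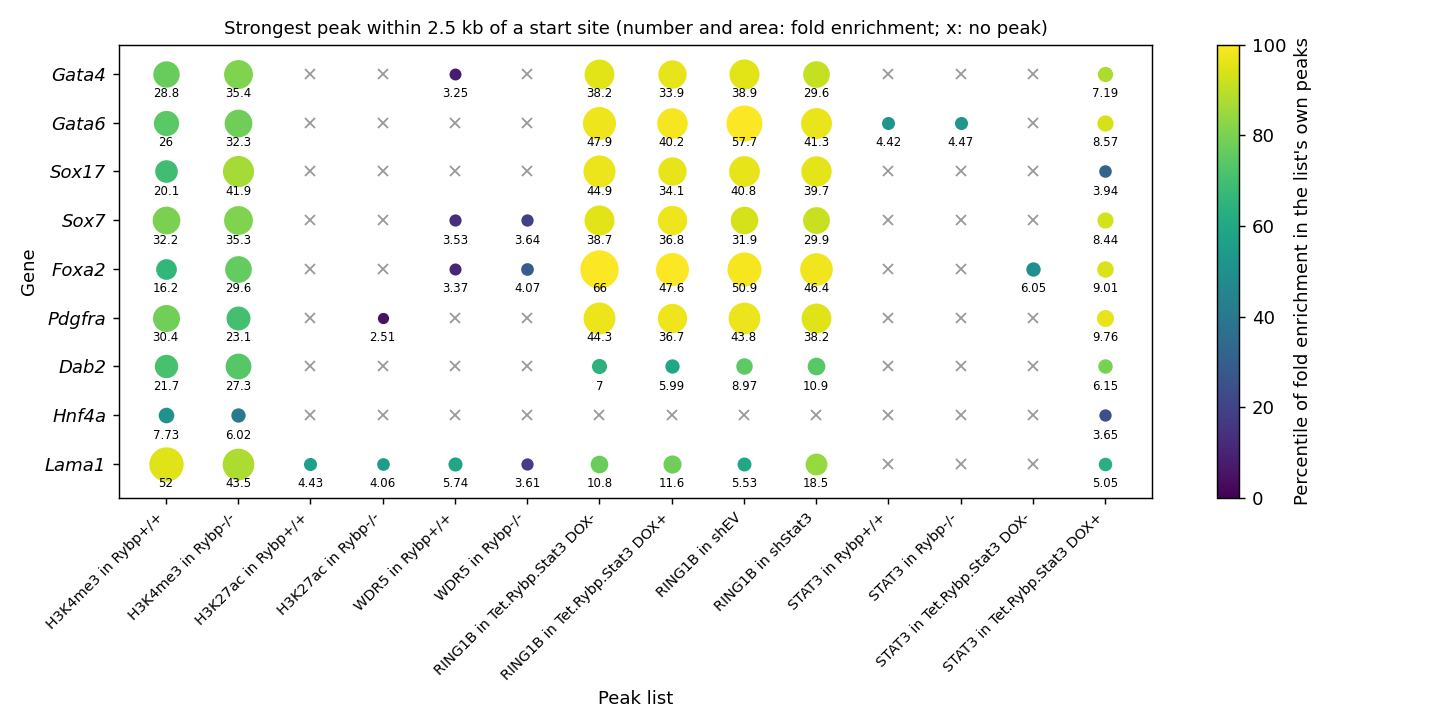
Strongest peak within 2.5 kb of a start site for each gene (rows) in the 14 peak lists (columns). Numbers are fold enrichments over background, the area of a point grows with them, the colour is the percentile within the list's own peaks and a cross marks no peak. The 6 genes Gata4, Gata6, Sox17, Sox7, Foxa2 and Pdgfra share high RING1B enrichment, and Hnf4a has no RING1B peak.

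H3K4me3, a mark of active and poised start sites, was present at all 9 genes in Rybp+/+ and in Rybp-/- ESCs, where 67.8% and 67.9% of protein-coding genes had a peak. Lama1 had the strongest of them, at 52-fold in Rybp+/+ and 43.5-fold in Rybp-/- ESCs, and Hnf4a the weakest, at 7.73- and 6.02-fold. In Rybp+/+ ESCs the H3K4me3 peak of Gata6 was 5.13 kb wide at 26-fold, and in Rybp-/- ESCs 5.3 kb wide at 32.3-fold. H3K27ac, a mark of active promoters and enhancers, was rare at the same sites. It was listed only at Lama1 in Rybp+/+ ESCs (4.43-fold) and at Lama1 and Pdgfra in Rybp-/- ESCs (4.06- and 2.51-fold), while 51.6% and 54.8% of protein-coding genes had an H3K27ac peak. The Pdgfra peak was 299 bp wide and stood at percentile 5.07 of its list, with a -log10 q of 2.12. WDR5 peaks were found at Gata4, Sox7, Foxa2 and Lama1 in Rybp+/+ and at Sox7, Foxa2 and Lama1 in Rybp-/- ESCs, against 46.8% and 49.2% of protein-coding genes. Their fold enrichment was 3.25- to 5.74-fold, from percentile 8.1 of its list at Gata4 to 59.1 at Lama1, both in Rybp+/+ ESCs. At a -log10 q of at least 5 the order of the 2 counts turned, with 1 gene in Rybp+/+ (Lama1) and 2 in Rybp-/- ESCs (Foxa2 and Lama1). Gata6, which rose most of the 9 genes with shWdr5 in R1 ESCs, had no WDR5 peak in either list from R7.15 ESCs.

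STAT3, the transcription factor downstream of LIF, was listed at Gata6 in Rybp+/+ (4.42-fold) and Rybp-/- ESCs (4.47-fold), and at Foxa2 in Tet.Rybp.Stat3 ESCs without DOX (6.05-fold). The shares of protein-coding genes were 7.78%, 6.56% and 9.03%. At a -log10 q of at least 5 the peak in Rybp-/- ESCs was kept and the other two were lost. With DOX all 9 genes had a STAT3 peak, at 3.65- to 9.76-fold, but so did 57.5% of protein-coding genes. The list with DOX held 30663 peaks and the one without DOX 2816. Peak names of the RING1B and STAT3 lists from Tet.Rybp.Stat3 ESCs and of the STAT3 lists from Rybp+/+ and Rybp-/- ESCs contain the word sampled, so ChIP or input reads may have been subsampled before calling, which could change the numbers of peaks and the enrichments, and this was not tested.

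Other genes of the lineage were taken from a list of 30 primitive and extraembryonic endoderm genes. In the Rybp knockout 18 of 27 tested were higher and 2 lower, and in the Rybp knockdown 17 of 27 were higher and 2 lower, with median log2 fold changes of 0.95 and 1.05 beside 0.002 and 0.018 over all genes. Of all genes tested, 22.8% were called higher and 22.7% lower in the knockout, and 26.8% and 26.0% in the knockdown. The fibroblast markers that rose in the same knockout libraries had a median of 1.12 over the 10 tested, the endoderm list holds matrix genes that fibroblasts also express (Col4a1, Col4a2, Sparc and Serpinh1), and the part of fibroblast markers in its count was not tested. The knockout raised Plat, a plasminogen activator of parietal endoderm, from 1.16 CPM in both controls to 3.27 and 3.46, and lowered Lrp2, the megalin receptor of visceral endoderm, from 23.5 in both to 7.86 and 8.28. The knockdown raised the keratin Krt18 from 8.55 and 7.8 to 64.7 and 69.3 CPM and the basement membrane collagen Col4a2 from 14 and 16.5 to 68.5 and 86 CPM. With shWdr5, 9 of 25 were higher and 5 lower (median 0.47 beside -0.007), beside 31.5% and 31.5% of all genes. The count called higher thus lay near the share of all genes. Among the 9 genes called higher, the collagen chaperone Serpinh1 went from 36.7 and 37.1 to 162 and 164 CPM, and Stra6, a retinol transporter, from 0.468 and 0.304 to 4.72 and 4.75. TF-AA mutant ESCs had 10 of 20 higher and 2 lower (median 0.49 beside 0.007), phase disruption 10 of 24 higher and 4 lower (0.21 beside 0.005), and J1 ESCs with DOX 2 of 20 higher and 4 lower (-0.15 beside -0.002). In the same order, 14.4%, 16.1% and 3.63% of all genes were called higher and 16.1%, 17.0% and 2.39% lower. Col4a1 and Col4a2 fell with RYBP induction, from 26.7 and 26.3 to 17.9 and 13.2 CPM and from 8.22 and 8.34 to 3.46 and 4.05 CPM. In the rTRS libraries labelled DOX, 14 of 25 were higher and 2 lower (0.63 beside 0.004), beside 23.0% and 20.4% of all genes. The list median was opposite in sign to that of the 9 genes (-0.63), and Krt18 went from 54.7 and 48.7 to 381 and 339 CPM. All 5 trophectoderm markers tested were also higher in these libraries, and with shRybp 4 of 6 were higher and 1 lower. Their part in the counts of this list and in Krt18 was not tested. Ttr was at 0 in every library of all 7 tables, and Afp in those of the knockout and of RYBP induction.

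The FGF and ERK inputs had calls in both directions. Of 17 genes, 6 of 17 tested were higher and 8 lower with shRybp (26.8% and 26.0% of all genes), 5 of 16 higher and 6 lower with shWdr5 (31.5% and 31.5%), and 5 of 17 higher and 5 lower in the knockout (22.8% and 22.7%), so that the counts with shWdr5 and in the knockout lay near those of all genes. Fgfr2, the FGF receptor gained by primitive endoderm cells, rose from 5.11 and 4.7 to 15.2 and 15.1 CPM with shRybp and from 4.96 and 4.66 to 23.9 and 23.1 with shWdr5. The ERK kinase gene Mapk3 fell from 71.3 and 77.9 to 26.8 and 26.5 CPM with shRybp, and the ERK feedback gene Spry4 from 141 and 147 to 55.5 and 52.7 with shWdr5. In TF-AA mutant ESCs no gene of this list rose and 8 of 15 fell, among them Fgfr2 and the ERK phosphatase gene Dusp6, which went from 111 and 109 to 68.7 and 70.3 CPM. Beside it, 14.4% of all genes rose and 16.1% fell. Phase disruption gave 3 higher and 8 lower of 17, RYBP induction 0 and 4, and the libraries labelled DOX 6 and 6, beside 16.1% and 17.0%, 3.63% and 2.39%, and 23.0% and 20.4% of all genes.

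Foxa2 and Sox17 also mark definitive endoderm, so 12 genes of definitive endoderm and the anterior streak were counted too. The counts of this list and of the markers that follow are to be read beside the shares of all genes called higher and lower, which were 26.8% and 26.0% with shRybp, 31.5% and 31.5% with shWdr5, 22.8% and 22.7% in the knockout, 14.4% and 16.1% in TF-AA mutant ESCs, 16.1% and 17.0% in phase disruption, 3.63% and 2.39% with RYBP induction and 23.0% and 20.4% in the rTRS libraries labelled DOX. Several counts lie near these shares. In the Rybp knockdown 4 of 11 were higher and 1 lower, with Foxa1, a paralogue of Foxa2, at 3.67 and 2.85 against 12.5 and 10.2 CPM. With shWdr5, 7 of 11 were higher and 2 lower, and in the knockout 1 of 9 was higher and 3 lower. TF-AA mutant ESCs had 0 of 7 higher and 2 lower, phase disruption 2 of 10 higher and 4 lower, and RYBP induction 1 of 6 higher and 0 lower. Cer1 was at 0 in every library of both knockdown tables. Trophectoderm markers were higher in 5 of 6 tested in the knockout, 4 of 6 with shRybp and 3 of 5 with shWdr5, with 1 lower in each knockdown. Their sums were 10.5 to 11.2 and 16.6 to 16.7 CPM in Rybp+/+ and Rybp-/- ESCs, 18.5 to 20.3 and 37.9 to 39.1 CPM in shEV and shRybp, and 17.8 to 19.2 and 34.3 to 38.1 CPM in shEV and shWdr5. In phase disruption 3 of 5 were higher, and the sums were 21.8 to 24.5 and 49 to 50.4 CPM. Fibroblast markers with shRybp were higher in 4 of 5 tested, with sums of 30.9 to 31.2 and 53.9 to 55.2 CPM and with Dcn and Lum at 0 in all 4 libraries. ESC markers went both ways in the knockdowns, with 5 of 11 higher and 4 lower with shRybp (median 0.12) and 5 higher and 5 lower with shWdr5 (median -0.06). Their sum was 8520 to 9310 CPM in shEV and 7420 to 7540 in shRybp, and 8040 to 8800 in shEV and 6820 to 6880 in shWdr5. In the knockout 8 of 11 were higher and 1 lower, and the sum was 5310 to 5500 CPM in Rybp+/+ and 6180 to 6190 in Rybp-/- ESCs. Neural markers summed to 20.6 to 21.7 CPM in shEV and 45.3 to 50.3 in shRybp, where 2 of 4 tested were higher and 1 lower, and to 15 to 18.7 CPM in NTC and 45.8 to 48.4 in the rTRS libraries labelled DOX, where 1 of 2 was higher and 1 lower. The sum with shRybp rose mainly through Nes, which went from 14.3 and 15.4 to 41.4 and 45.3 CPM. Pax6 fell there from 5.66 and 5.95 to 2.55 and 3.5 CPM. Between 0 and 3 neural markers were higher, and 0 or 1 lower, in each of the other 5 comparisons. The part of these markers in the changes of the 9 genes was not tested.

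**Figure D5:**
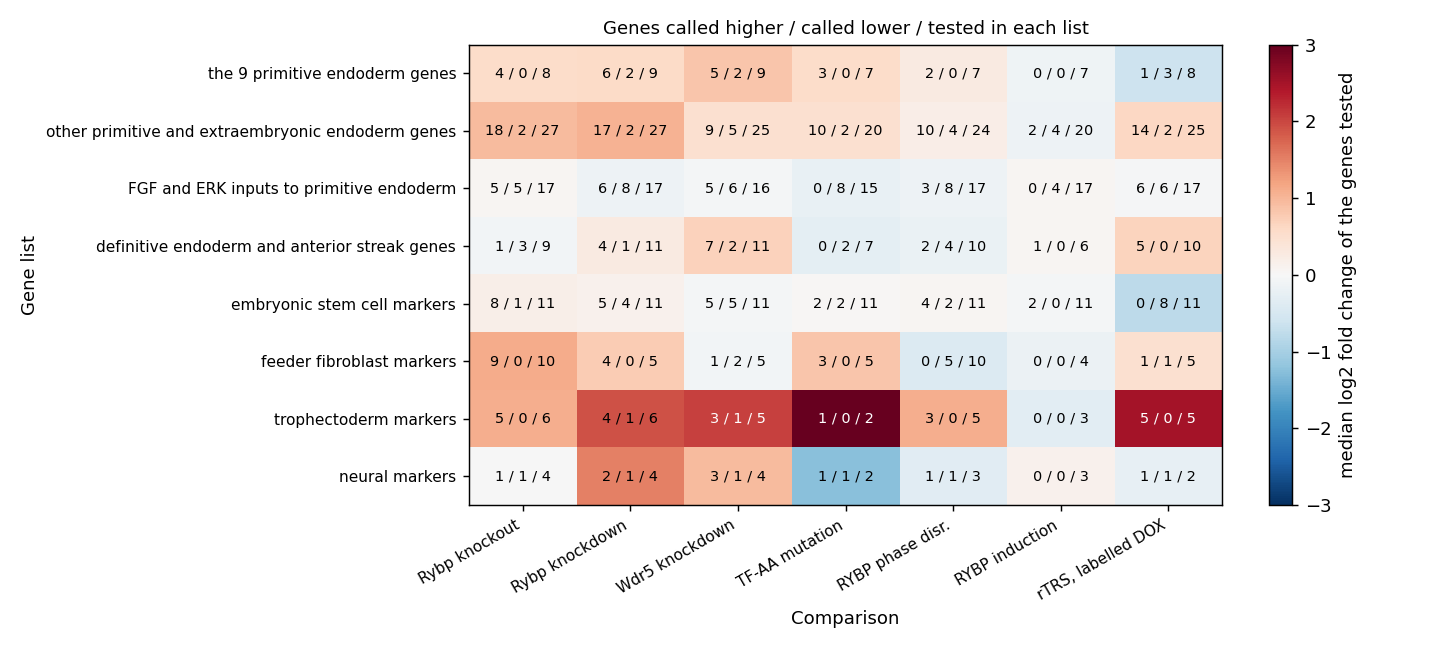
Genes called higher, called lower and tested (3 numbers in each cell) in 8 gene lists (rows) and the 7 comparisons (columns), with the median log2 fold change of the genes tested as colour. The list of other primitive and extraembryonic endoderm genes has 18 of 27 higher in the Rybp knockout and 17 of 27 in the Rybp knockdown, beside 22.8% and 26.8% of all genes tested. The ESC markers have 8 of 11 lower in the rTRS libraries labelled DOX, beside 20.4% of all genes tested.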

How the data were processed

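RNA-seq was available as 7 tables of counts deposited per gene, without normalization, and ChIP-seq as 14 peak lists. The authors trimmed RNA-seq reads with Trim Galore, aligned them to mm9 with STAR and counted them with HTSeq. The rows that name no gene held 0 to 58.5% of the counts and were left out. The shEV libraries held 0.506 to 0.509 as many counts in the Wdr5 table as in the Rybp knockdown table, so the latter may count both mates, and the knockout and rTRS tables, also deep, may do so too. Peak lists give, per the authors' MACS2 calls against input, a fold enrichment (ratio over background) and a -log10 q value. The authors' methods state an FDR of 0.01, but 1.05 to 8.72% of the peaks in each deposited list lie under the corresponding -log10 q of 2. Read depth of the ChIP-seq is not given in the sources used here.

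Some column names differ from the labels: WT and RphaseMut in the phase disruption table were read as WT.RYBP and RYBP phase disruption, NTC in the RYBP induction table as vehicle, and S5-DOX in the rTRS table as rTRS DOX, so these groups rest on that reading.

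Counts were filtered (filterByExpr), scaled by TMM and tested with the quasi-likelihood F test of edgeR 4.0.16, and p-values were adjusted (Benjamini-Hochberg) across the whole table. SE is the log2 fold change divided by the root of F. Each table was fitted alone, with 2 against 2 libraries, and the knockout and knockdown tables were joined for the test of their difference. The test was tried on simulated data in each table. Alternatives were RLE scaling, no filter, DESeq2 1.42.0, the replicate block, each library left out, counts divided by 2 in these 3 tables (added after seeing the data) and, for peaks, a window of 5 kb, a -log10 q of at least 5 and an overlap of 200 bp. No 2 libraries of a group were identical or agreed within counting noise. All 9 genes are named in each comparison, and at most 2 called genes with the largest change from each other list, with a mean of at least 1 CPM. The genes and lists were chosen with earlier results of these data known. Dab2 has a second gene ID without counts, which was not used. Annotation was GENCODE vM1 on NCBIM37, and 37205 of 37620 IDs matched.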

Additional observations from a re-analysis of the deposited data

Results flagged for a closer look

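For 5 genes the log2 fold change differed between the Rybp knockout in R7.15 ESCs and the Rybp knockdown in R1 ESCs, by edgeR's test of the difference (knockout minus knockdown). The differences were -1.32 for Gata6 (edgeR adjusted p = 0.016), -1.43 for Sox17 (0.019), 1.03 for Sox7 (0.0055), -1.55 for Foxa2 (0.033) and 1.08 for Pdgfra (0.021). Gata6 and Sox7 had estimates of opposite sign in the 2 experiments, -0.76 and 0.58 for Gata6 and 0.42 and -0.58 for Sox7, of which the 2 knockdown estimates passed the test. Over all genes tested the share that differed was 40.5%.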

How the results depend on the processing

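No fold change of the 9 genes changed sign with a call in any alternative run. Of 582 fold changes recomputed, 533 kept their side of the threshold, 39 lost their call and 10 gained one, and 32 of the losses and 6 of the gains came from leaving out 1 library. With DESeq2 the Wdr5 knockdown had 3 of the 9 genes higher, and phase disruption 0, with 1362 genes higher and 1618 lower over the table. Without the filter on low counts phase disruption had 0 of the 9 higher and 1502 genes higher, and RYBP induction had 1 of the 9 lower. RYBP induction had 1 of the 9 higher with DESeq2. The replicate block (replicate number as a block) gave RYBP induction 1 of the 9 higher and 1 lower, and moved no other count by more than 1.5 times. The numbers are shared only as numbers, and deviations of same-numbered libraries correlated at 0 to 0.26. With counts divided by 2 (chosen after seeing the data), the Rybp knockout had 4 of the 9 higher and 0 lower, the Rybp knockdown 6 and 2, the rTRS libraries labelled DOX 1 and 3, and the difference between knockout and knockdown 2 and 3.

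Leaving out each library in turn gave, for the 9 genes, 5 to 6 higher and 0 to 2 lower with shRybp, 3 to 5 higher with shWdr5, 0 to 1 higher in phase disruption, and 0 to 1 higher and 0 to 1 lower with RYBP induction. The counts stayed at 4 higher in the knockout, 2 lower with shWdr5, 3 higher in TF-AA mutant ESCs, and 1 higher and 3 lower in the libraries labelled DOX. For the difference between knockout and knockdown it gave 1 to 2 higher and 1 to 4 lower. Over whole tables the counts ranged from 1280 to 2254 higher and 1444 to 2513 lower in TF-AA mutant ESCs, from 1614 to 1885 higher and 1763 to 2178 lower in phase disruption, and from 239 to 925 higher and 166 to 641 lower with RYBP induction. At a -log10 q of at least 5, H3K27ac in Rybp-/- ESCs was at 1 of the 9 genes, WDR5 in Rybp+/+ ESCs at 1, and STAT3 in Rybp+/+ ESCs and in Tet.Rybp.Stat3 ESCs without DOX at 0. A lone library left in an arm was assumed to vary like the other group. Gata6, Sox17, Foxa2 and Hnf4a had too few counts to enter the test in 1 or more tables.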
